A study of Homo sapiens with 8 samples.

Results

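The genes described here encode the proteins of the cytosolic ribosome. Members were taken by symbol, as every RPL or RPS gene whose name ends in a number or in a number followed by A or X, together with RPLP0, RPLP1, RPLP2 and RPSA. This gave 77 of the 28265 genes in the count tables, 31 for proteins of the small (40S) subunit and 46 for proteins of the large (60S) subunit. Paralogs such as RPL22L1, and FAU, a fusion gene whose product releases a ribosomal protein, fell outside the naming rule and are given beside the members.

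RNA was measured in IMR90, a line of human fetal lung fibroblasts, by factory RNA-Seq, which sequences RNA still attached to transcription sites. The study asked what inflachromene (ICM), a small molecule that binds the chromatin proteins HMGB1 and HMGB2, does to transcription. Libraries labelled young (low-passage cells without ICM), ICM_3days, ICM_6days (3 and 6 days with ICM) and MetaICM were made, with 2 libraries each. What was done to the MetaICM cells is not explained by the labels or the methods, so its comparisons are given by label only, and the labels name no vehicle for the young cells. The labels also state poly(A) selection of total RNA for every library, so counts on exons may hold finished mRNA as well as nascent RNA, and the share of each was not measured. The labels do not say whether the 2 libraries of a condition came from separate cultures, so p-values measure only the spread between these libraries.

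A ribosome joins the 40S subunit, which reads the mRNA, to the 60S subunit, which forms the peptide bond, and a cell needs the proteins of both in matched amounts. Their genes lie scattered over the genome and are among the most active in growing cells. Their mRNAs typically open with a cytosine followed by a run of pyrimidines, the 5′ terminal oligopyrimidine (TOP) tract, through which mTOR signalling and the protein LARP1 control translation. Single ribosomal proteins also act outside the ribosome: RPL5 and RPL11, bound to 5S rRNA, inhibit MDM2 and so stabilise p53.

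The 8 libraries held between 12095123 and 23166405 counted read pairs, and the members took 0.806% to 1.15% of them. Of 10 fibroblast markers, 9 were abundant in every library (DCN had 1249 and 1337 CPM in young), and S100A4 stayed under 1 CPM. EPCAM, CDH1, PECAM1, CDH5, PTPRC and CD3E, which define epithelial, endothelial and blood cells, were at or near 0. Exceptions on those lists were KRT18, at 27.9 to 84.8 CPM, TEK, at 124 to 231 CPM, KRT8, at up to 12.4 CPM, and CD68, at 4.22 to 20.5 CPM. Summed fibroblast markers stood at 25394 and 24485 CPM in young, 15796 and 14140 CPM at 3 days, 12298 and 11981 CPM at 6 days, and 22446 and 23335 CPM in MetaICM, and their part in the values below was not tested. CPM is the count of a gene relative to the TMM-scaled library size, in the usual per-million unit.

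The annotated starts show what most members share and the naming rule did not use. Windows of 30 bases were read from GRCh37, the build of the count tables, around the start of each MANE Select transcript (GENCODE lifted to GRCh37), with the start at base 16. Capitals mark the longest run of pyrimidines that opens with a C no more than 5 bases from that start and holds at least 4 further pyrimidines. The first 6 members passed the test in at least 1 comparison and carry such a run, and the next 3 passed as well and carry none. The last 4 set 2 members beside their paralogs outside the rule.
RPL3 (chr22:39715614-39715643, minus strand): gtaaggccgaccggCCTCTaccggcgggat
RPLP1 (chr15:69745142-69745171, plus strand): gtataggcgcgagagCCCCTTTCCTCagct
RPL26 (chr17:8286497-8286526, minus strand): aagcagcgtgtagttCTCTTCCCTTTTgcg
RPS2 (chr16:2014813-2014842, minus strand): ccagtaggtctcgttCTTCTTTTCCgacaa
RPS19 (chr19:42364310-42364339, plus strand): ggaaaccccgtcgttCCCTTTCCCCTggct
RPL35 (chr9:127624222-127624251, minus strand): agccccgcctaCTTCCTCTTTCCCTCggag
RPS15 (chr19:1438380-1438409, plus strand): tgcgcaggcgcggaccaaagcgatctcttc
RPL27 (chr17:41150421-41150450, plus strand): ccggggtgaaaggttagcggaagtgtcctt
RPS26 (chr12:56435687-56435716, plus strand): gagacacataacctcgattttcttccgcca
RPL22 (chr1:6259641-6259670, minus strand): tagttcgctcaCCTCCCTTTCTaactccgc
RPL22L1 (chr3:170587970-170587999, minus strand): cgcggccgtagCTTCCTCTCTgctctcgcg
RPL39 (chrX:118925579-118925608, minus strand): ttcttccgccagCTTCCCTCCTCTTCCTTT
RPL39L (chr3:186857270-186857299, minus strand): gcatccggggaaatcgcggtcttagcatcc

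A C at the annotated start followed directly by at least 4 pyrimidines was found in 58 of the 77 members (75.3%), against 5.4% of the 12934 tested genes that have such an annotated start. With the C allowed up to 5 bases away, 66 members (85.7%) and 22.5% of tested genes qualified. Where the tract lay at the start, its median length was 8 bases, and the longest ran to 19 bases, in RPL39. The 11 members without a tract in reach of the annotated start included RPL15, RPL17, RPL23, RPL23A, RPL27, RPL9, RPS15, RPS26 and RPS4X. An annotated start can lie some bases from the one used in these cells, so a missing tract describes only the window.

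Short motifs were counted on both strands from 250 bases before to 50 bases after each start, and none of them contains another. CCGGAAG, the core bound by ETS factors, was present in 35.1% of members and 18.8% of tested genes, and AAGATGGC, part of the YY1 site, in 13% and 5.5%. The GC box GGGCGG was present in 59.7% of members and 72.6% of tested genes, the E-box CACGTG in 6.49% and 9.78%, and the TATA motif TATAAA in 7.79% and 5.75%. With 1 place taken per member, the 77 members lay on 20 chromosomes, and 12 members lay on chromosome 19. RPL21 was counted on chromosome 10, although its annotated start lies on chromosome 13. Of the 77 members, 28 held 59 small nucleolar RNA genes inside their spans.

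Counted exon length ran from 358 to 7572 bases with a median of 1140, so levels of different members were compared per kilobase of exon. In young cells RPL7A, RPL13A and RPL3 stood highest. RPL7A, a 60S protein gene, reached 301 ± 62.1 CPM per kilobase (SD, n = 2), RPL13A 270.0 ± 26.2, and RPL3, whose product lies close to the peptidyl transferase centre, 261 ± 44.0. The interquartile range over members was 36.8 to 143 CPM per kilobase in young. RPS10 (1.76 ± 0.0676) and RPL36A (1.36 ± 0.0711) were among the lowest per kilobase.

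These low values sit with annotation limits and cannot be read as low transcription. RPS10 shares 60% of its counted exon bases with a readthrough gene and RPL36A shares 43.8%, and pairs on bases of several genes were not counted. RPL17 (52.4%), RPL38 (57.6%) and RPL10 (42.7%) also share over 40% of their bases, and 18 members share at least some. RPL21 has places on chromosomes 10 and 13. In all, 73 of the 77 members had at least 200 counts in every library.

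**Figure D1:**
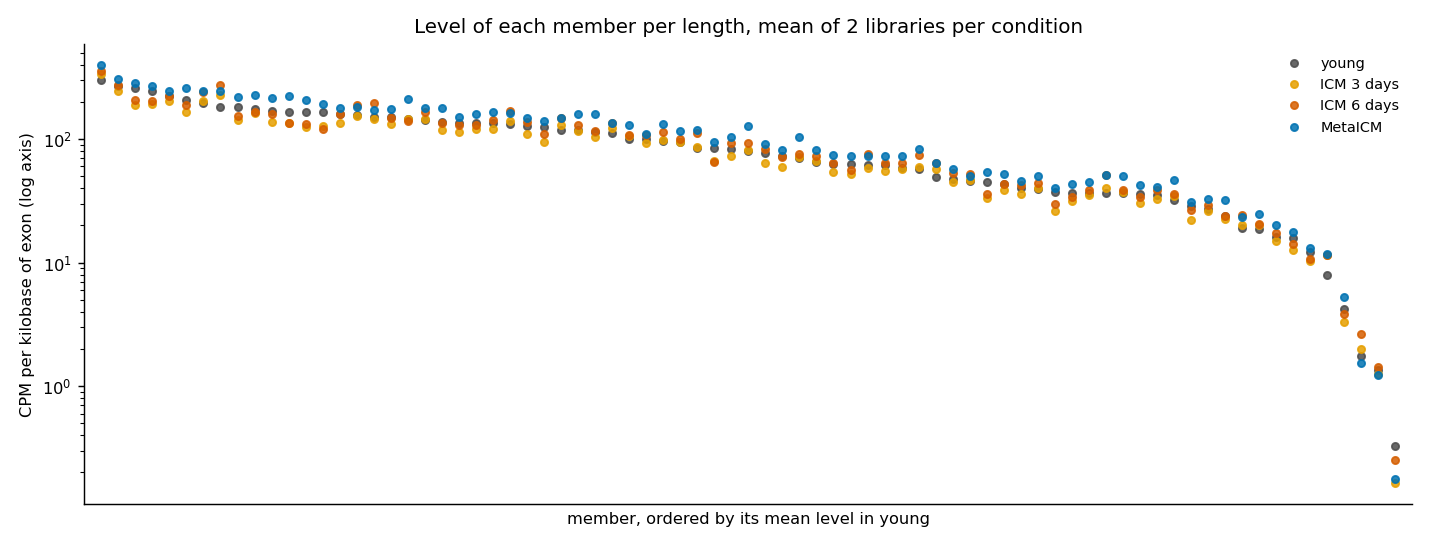
Level of the 77 members in CPM per kilobase of exon (log axis), ordered by the mean in young. Each point is the mean of 2 libraries of 1 condition, and the 4 conditions follow nearly the same order, with RPL7A highest at the left.

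The order of the members was nearly the same in all conditions. Across the 77 members, the log2 level per kilobase in young had a Pearson r of 0.993 with that at 3 days, 0.991 with that at 6 days and 0.996 with that in MetaICM (Spearman 0.984, 0.977 and 0.993), given as a description since the members share libraries and annotation. Neighbours in that order mostly could not be separated, since only 12 of the 76 neighbouring pairs in young had libraries that did not overlap. The 2 subunits also kept their proportion. The summed CPM of the 60S members was 1.91 and 1.85 times that of the 40S members in young, 1.91 and 1.90 times at 3 days, 1.91 and 1.88 times at 6 days, and 1.93 and 1.89 times in MetaICM.

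Summed over all members, the level was lowest at 3 days and highest in MetaICM, but libraries of 1 condition also lay apart. The sums were 9475 and 8073 CPM in young, 8357 and 7855 CPM at 3 days, 8688 and 9781 CPM at 6 days, and 9800 and 11542 CPM in MetaICM. Only the MetaICM libraries both lay above both young libraries, at 1.22 times the young mean. The 6-day mean was 1.05 times and the 3-day mean 0.924 times that of young, with overlapping libraries.

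**Figure D2:**
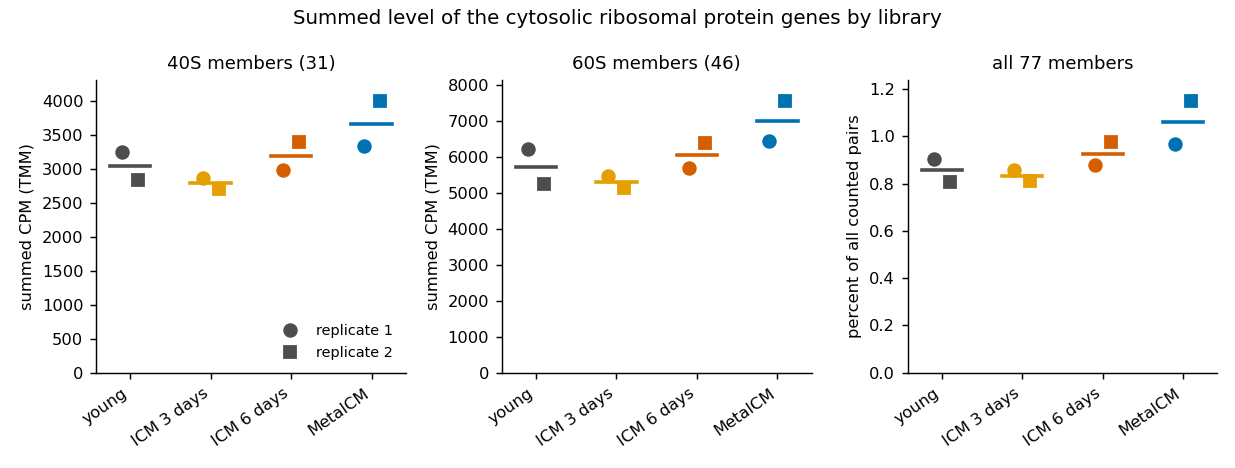
Summed level of the 40S members and of the 60S members in CPM, and share of all counted pairs taken by the 77 members in percent, in each of the 8 libraries. Circles and squares are replicates 1 and 2 and lines are means, and the 2 MetaICM libraries lie above both young libraries in each panel.

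Nearly all members moved together between libraries of the same condition. In young, 5 of the 75 members with enough counts were higher in replicate 2 than in replicate 1, with a median log2 difference of −0.20. At 3 days 13 of 75 were higher in replicate 2 (median −0.09), at 6 days 72 of 75 (median 0.16) and in MetaICM 73 of 75 (median 0.24). Of all 14109 genes, 48.3% were higher in replicate 2 in young, 48.8% at 3 days, 51.6% at 6 days and 51.1% in MetaICM. Their median log2 differences were −0.012, −0.0071, 0.0067 and 0.0032, in the same order. Their median absolute difference was 0.21 in young, 0.16 at 3 days, 0.12 at 6 days and 0.11 in MetaICM. The family thus shifted between 2 libraries of 1 condition by up to 0.24, against medians between conditions of −0.10 to 0.28 given below, and the libraries that decide a count are named beside it.

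Over the 8 libraries, 67 of the 75 members had a Pearson r above 0.7 with the median member's profile of log2 CPM, against 7.48% of all genes. The genes outside the rule whose profile was most like that median were EIF4B, a translation initiation factor (r = 0.972, n = 8 libraries), COX6A1 (0.963), FDXACB1 (0.954), SIRT2 (0.954) and POLR3D (0.953). EIF4B stood at 211 and 188 CPM in young, 192 and 180.0 CPM at 3 days, 190 and 213 CPM at 6 days, and 206 and 233 CPM in MetaICM. The median profile was made from the members themselves, which raises their own r, so the contrast with 7.48% of all genes is partly built in. The profiles share libraries and scaling, and no test was made of them.

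After 3 days of ICM, the ribosomal protein genes moved little against young cells relative to the library, and those that passed the test were all lower. By the quasi-likelihood test of edgeR, with p adjusted after Benjamini and Hochberg over 15692 genes, none of the 76 members tested had both an adjusted p under 0.05 and an absolute log2FC over 0.6, while 22.0% of all genes did (8.85% higher and 13.2% lower). DESeq2 also found none. At an unadjusted p under 0.05 there were 14 members lower and none higher. The share of all genes was not computed at this limit. It is at least the share by adjusted p, 15.9% lower and 13.0% higher. By adjusted p alone, 7 members were lower, among them RPS20, RPL3, RPLP1, RPL26, RPS23 and RPS2, and none was higher, against 15.9% of all genes lower and 13.0% higher (29.0% in all). The median log2FC was −0.10 over the members and 0.01 over all genes tested, and the 40S members (median −0.16, 4 of 30 lower) and the 60S members (median −0.10, 3 of 46 lower) had similar medians. Both 3-day libraries lay above both young libraries for 6 members and below them for 34, where 33.7% and 31.8% of all genes did.

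RPS20, a protein of the head of the 40S subunit, had 82.9 and 80.1 CPM in young and 59.4 and 55.6 CPM at 3 days. Both 3-day libraries lay below both young libraries, and its log2FC was −0.51 (SE 0.13, adjusted p = 0.0114). RPL3 went from 378 and 298 CPM to 265 and 229 CPM, again without overlap (log2FC −0.46, SE 0.14, adjusted p = 0.033). RPLP1, an acidic protein of the stalk that recruits elongation factors to the 60S subunit, had 58.8 and 47.4 CPM in young and 40.3 and 38.2 CPM at 3 days (log2FC −0.44, SE 0.15, adjusted p = 0.0402). RPL26, which is also known to bind p53 mRNA, fell from 118 and 106 CPM to 87.2 and 85.5 CPM (log2FC −0.38, SE 0.12, adjusted p = 0.0372).

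RPS23 and RPS2, both 40S proteins, had log2FC of −0.38 and −0.37. RPS2, which lies at the mRNA entry site, stood at 150.4 and 160.2 CPM in young and at 125 and 116 CPM at 3 days. The other stalk genes, RPLP0 (log2FC −0.35, adjusted p = 0.0879) and RPLP2 (−0.15, adjusted p = 0.51), did not pass, and neither did RPSA, the laminin receptor and 40S protein (−0.17, adjusted p = 0.344). RPL5 (−0.16, adjusted p = 0.37) and RPL11 (−0.03, adjusted p = 0.902), the partners of MDM2, did not pass. RPL22 (−0.10), RPS3 (0.02), RPS6 (−0.25), RPS27 (−0.22) and RPS27A (−0.26) had adjusted p values between 0.156 and 0.948.

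The count at 3 days rested on single libraries. Without young replicate 1, 4 of the 7 were lower, RPS2, RPS20 and RPS23 among them, 4 members were higher, RPL17, RPL7A and RPS3 among them, and the members' median was 0.011. Without young replicate 2, 18 members were lower and the median was −0.24, and without either 3-day library none was lower. Scaling to library totals left RPS20 alone lower and a median of −0.021. The summed level of 4 nuclear RNAs (MALAT1, NEAT1, KCNQ1OT1 and MEG3) was 19831 and 15759 CPM at 3 days against 10359 and 11198 CPM in young, most of it NEAT1, and its part in these values was not tested.

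After 6 days of ICM, the members were split around no change relative to the library, again with small differences. None of the 77 members tested passed both limits, against 30.5% of 15950 genes (13.3% higher and 17.2% lower), and DESeq2 also found none. By adjusted p alone, 6 members were higher and 2 lower, where 20.5% of all genes were higher and 21.7% lower (42.2% in all). At an unadjusted p under 0.05 there were 11 higher and 8 lower. The share of all genes was not computed at this limit. It is at least the share by adjusted p, 20.5% higher and 21.7% lower. The median log2FC was 0.08 over members and 0.00 over all genes, and 60 of the 77 members had a 95% interval of the log2FC that lay wholly between −0.6 and 0.6, which held for 25.7% of all genes. The median SE was 0.127 over members and 0.172 over all genes, so the members' intervals also tended to be narrower. Both 6-day libraries lay above both young libraries for 20 members and below them for 16, where 36.6% and 36.1% of all genes did.

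RPS26, which contacts the mRNA at the exit of the 40S subunit, rose from 44.4 and 39.2 CPM to 55.04 and 61.2 CPM (log2FC 0.47, SE 0.13, adjusted p = 0.0131). RPL27 rose from 84.2 and 71.0 CPM to 95.1 and 109.8 CPM (0.40, SE 0.13, adjusted p = 0.0297), and RPS19, the gene most often mutated in Diamond-Blackfan anaemia, from 133 and 124 CPM to 158 and 176 CPM (0.38, SE 0.11, adjusted p = 0.0209).

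RPL35A and RPL37 were higher as well, both with log2FC of 0.36. RPS2 was lower than in young, at 104 and 125 CPM (log2FC −0.44, SE 0.12, adjusted p = 0.0153), and so was RPS20, at 61.6 and 69.01 CPM (−0.32, SE 0.12, adjusted p = 0.046). All 4 ICM libraries of these genes lay below both young libraries.

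**Figure D3:**
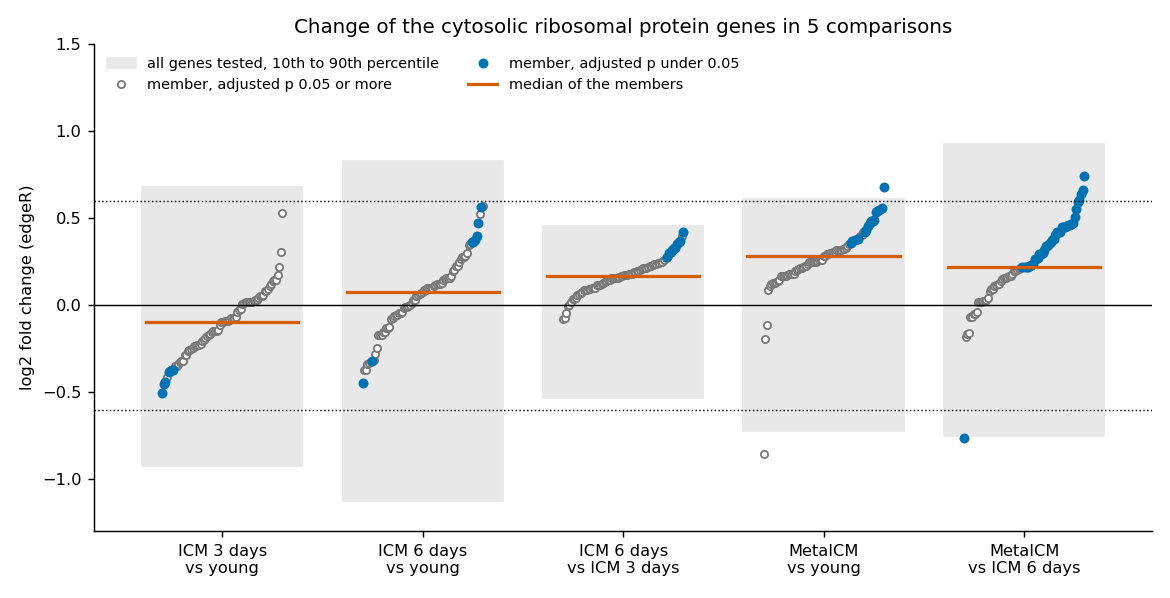
log2FC of every member tested in the 5 comparisons, in rising order within each. Filled points passed an adjusted p under 0.05, orange lines are the members' medians, grey boxes span the 10th to the 90th percentile of all genes tested and dotted lines mark log2FC of −0.6 and 0.6. Nearly all members lie inside the grey boxes.

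Single libraries again decided the 6-day counts. Without young replicate 1, 20 members were higher, 2 of them by more than 0.6 (RPL17 was one), 4 were lower and the median was 0.17. Without young replicate 2, 7 were higher, 16 were lower and the median turned to −0.03. Leaving out the first 6-day library left 1 higher and none lower, and leaving out the second left none higher, RPS2 alone lower and a median of −0.03. Scaling to library totals gave 11 higher, with 1 past both limits, and RPS2 alone lower.

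Compared directly, 6 days of ICM exceeded 3 days for most members by a small and even step. Of 76 members, 72 had a log2FC above 0, the median was 0.17 against −0.01 for all genes, and the SD over members was 0.10, against 0.32 for the 4705 genes of similar level. In this comparison 49 members had both 6-day libraries above both 3-day libraries and none had both below, where 29.9% and 29.5% of all genes did. None passed both limits, in edgeR or in DESeq2 (8.07% of all genes did in edgeR, 3.53% higher and 4.54% lower), and 10 passed the adjusted p alone, all higher, against 9.66% of all genes higher and 9.66% lower (19.3% in all). At an unadjusted p under 0.05, 23 were higher and none lower. The share of all genes was not computed at this limit. It is at least the share by adjusted p, 9.66% higher and 9.66% lower.

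RPL4, which lines the exit tunnel of the 60S subunit, had 415 and 380.2 CPM at 3 days and 499 and 567 CPM at 6 days (log2FC 0.42, SE 0.09, adjusted p = 0.00316). RPS27A, a fusion of ubiquitin with a 40S protein, had 96.1 and 79.6 CPM and then 109.3 and 118 CPM (0.37, SE 0.10, adjusted p = 0.0147). RPL41, the smallest ribosomal protein, rose from 39.3 and 39.98 CPM to 46.7 and 55.5 CPM (0.36, SE 0.11, adjusted p = 0.0239), and RPL27 from 84.4 and 75.8 CPM to 95.1 and 109.8 CPM (0.35, SE 0.10, adjusted p = 0.018). The others were RPS26, RPL10, RPS19, RPS27, RPS4X and RPL37, with log2FC between 0.27 and 0.33. Without the second 6-day library none passed, and without the first 3-day library 24 did. The summed level of the 4 nuclear RNAs was 19831 and 15759 CPM at 3 days and 8793 and 9973 CPM at 6 days, and its part in the step was not tested. Across members, the log2FC had a Pearson r of −0.38 with the GC content of the transcript, and across the 12750 genes with a MANE Select transcript it was −0.27.

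Relative to the library, the ribosomal protein genes stood higher in MetaICM than in young, by a modest step. The log2FC was above 0 for 74 of the 77 members, with a median of 0.28 against 0.00 for all 15904 genes, and 57 members had both MetaICM libraries above both young ones, where 34.7% of all genes did. One member, RPS15, passed both limits, while 16.4% of all genes did (7.41% higher and 8.99% lower). By adjusted p alone 16 members were higher (13.0% of all genes were) and none was lower (27.0% of all genes passed in either direction). Among the 4705 genes of similar level, 34.8% passed in either direction. At an unadjusted p under 0.05, 35 were higher and none lower. The share of all genes was not computed at this limit. It is at least the share by adjusted p, 13.0% higher. DESeq2 found 17 higher, 14 of them shared with edgeR, and none lower.

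RPS15, a protein of the 40S head, had 59.1 and 50.6 CPM in young, 55.7 and 55.9 CPM at 3 days, 61.0 and 67.7 CPM at 6 days, and 76.7 and 99.6 CPM in MetaICM. Its log2FC against young was 0.68 (SE 0.14, adjusted p = 0.00766). RPL36 went from 63.1 and 47.9 CPM in young to 74.7 and 89.3 CPM (0.56, SE 0.15, adjusted p = 0.0205), and RPL8 from 178 and 131 CPM to 202 and 250.3 CPM (0.55, SE 0.16, adjusted p = 0.0269). RPS19 reached 168 and 208 CPM, above all young libraries (0.54, SE 0.12, adjusted p = 0.0106).

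RPL11 had 139.7 and 107.8 CPM in young and 153 and 181 CPM in MetaICM (log2FC 0.43, SE 0.14, adjusted p = 0.0449), while its partner RPL5, at 254 and 231 CPM in young and 251 and 274 CPM in MetaICM, did not pass (0.11, adjusted p = 0.484). RPLP2 passed (0.49, adjusted p = 0.0328), and the stalk members RPLP0 (0.26, adjusted p = 0.169) and RPLP1 (0.25, adjusted p = 0.19) did not. RPSA (0.25), RPL22 (0.34), RPS27 (0.20), RPS3 (0.30), RPS6 (0.18) and RPS27A (0.25) had adjusted p values between 0.121 and 0.285.

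These counts depended on the library as well. Without the second MetaICM library no member passed, and without the first 7 did, each with a log2FC over 0.6. Without young replicate 1, 62 members passed, 12 of them by more than 0.6, and without young replicate 2, 25 passed and none exceeded 0.6. The median stayed between 0.16 and 0.42 with any library left out. The r with GC content was 0.32 across members here and 0.31 across 12806 genes. The 4 nuclear RNAs summed to 6812 and 7076 CPM in MetaICM against 10359 and 11198 CPM in young, with 2 of them lower by adjusted p. A list of 13 abundant mRNAs of the cytoplasm had a median log2FC of 0.38, with 12 of 13 above 0. By adjusted p, 6 were higher and none lower, where 13.0% of all genes were higher. The list summed to 21725 and 23538 CPM against 20228 and 16471 CPM. It did not move as one in every comparison. Against young, 6 were higher and 7 lower at 3 days (median −0.39), and 6 higher and 3 lower at 6 days (median −0.10). In MetaICM against 6 days, 7 were higher and 6 lower (median 0.30). In 6 against 3 days, 3 were higher and none lower (median 0.04). The part of either list in the members' values was not tested.

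MetaICM also stood above 6 days of ICM, and here the most members passed, as did the largest share of all genes. Of 76 members, 39 were higher and 1 was lower by adjusted p alone, with a median of 0.22, where 27.5% of all 16036 genes were higher and 26.0% lower (53.5% in all). Among the 4705 genes of similar level, 67.9% passed in either direction. Both limits were passed by RPL35, RPS2, RPL12 and RPL8, all higher, and by RPS10, which was lower, against 27.7% of all genes (15.7% passed as higher). In DESeq2, 29 were higher, each of them also higher in edgeR, and none lower. Both MetaICM libraries lay above both 6-day libraries for 34 members and below them for 2, where 38.4% and 37.8% of all genes did. The r of the log2FC with GC content was 0.34 across members and 0.29 across 12831 genes, and the nuclear RNAs summed to 8793 and 9973 CPM at 6 days and 6812 and 7076 CPM in MetaICM, whose part was not tested. The members' log2FC had an SD of 0.23, against 0.67 for the genes of similar level.

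RPL35, a 60S protein at the exit of the tunnel, had 57.2 and 64.3 CPM at 6 days and 90.7 and 112 CPM in MetaICM (log2FC 0.74, SE 0.09, adjusted p = 7.12e-07). RPS2 went from 104 and 125 CPM at 6 days to 159 and 203 CPM (0.66, SE 0.10, adjusted p = 9.61e-06). RPL12, at the base of the stalk, went from 81.5 and 87.6 CPM to 124 and 140.0 CPM (0.64, SE 0.08, adjusted p = 6.02e-07), and RPL8 from 142 and 157 CPM to 202 and 250.3 CPM (0.60, SE 0.09, adjusted p = 6.52e-06). All 3 stalk genes passed, RPLP0 at 0.51, RPLP1 at 0.59 and RPLP2 at 0.47.

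The single lower member, RPS10, had 2.2 and 2.1 CPM at 6 days and 1.2 and 1.3 CPM in MetaICM (log2FC −0.76, SE 0.29, adjusted p = 0.0305). Most of its exon bases are shared, its counts ran from 17 to 41, and DESeq2 did not call it. Without the second MetaICM library 21 members were higher and none by more than 0.6, without the first 55 were, and without the second 6-day library 52 were. Without the first 6-day library RPL35 alone passed both limits. RPS10 passed in none of the 4 fits that leave out a library.

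**Figure D4:**
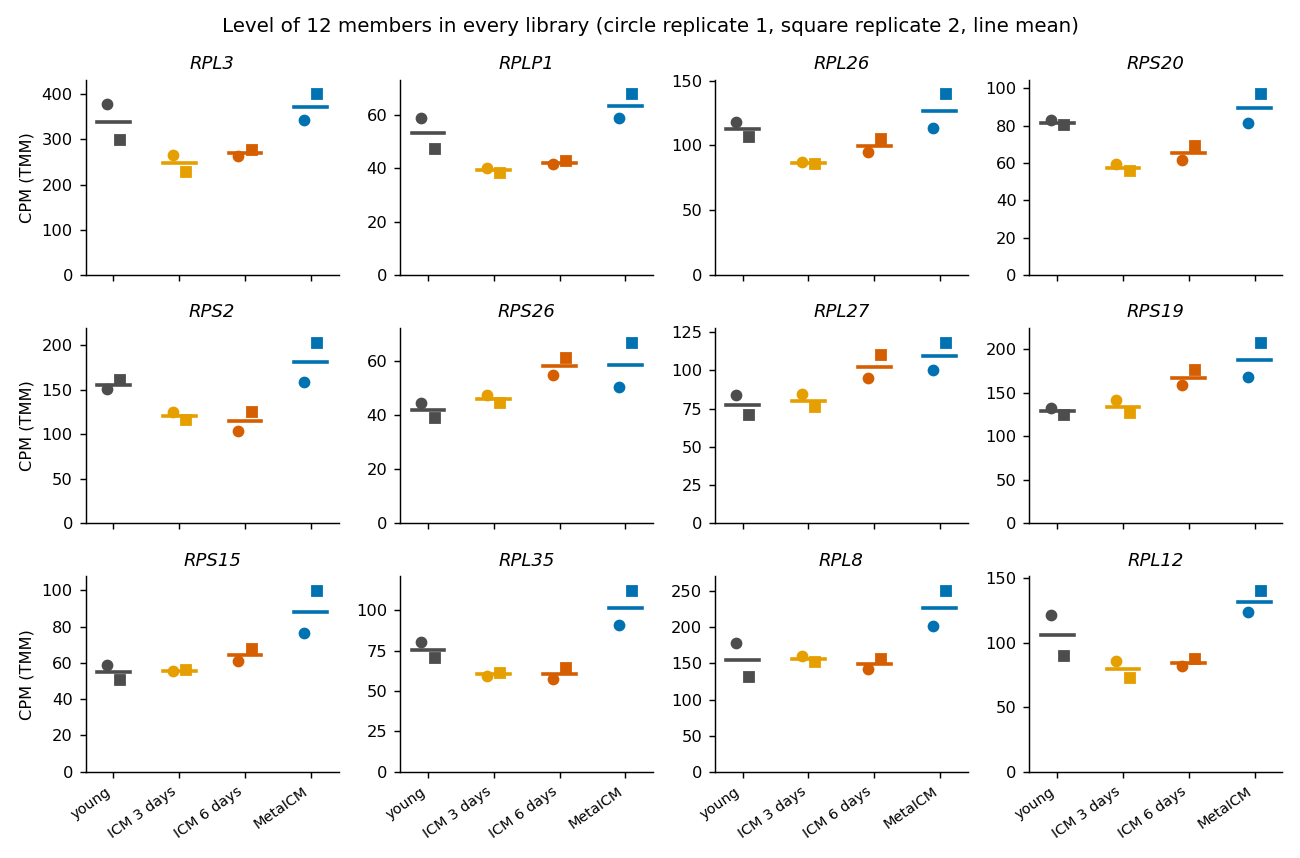
CPM of 12 members in each of the 8 libraries, with circles for replicate 1, squares for replicate 2 and lines for the means. RPL3, RPLP1, RPL26, RPS20 and RPS2 are lower at 3 days than in young, RPS26, RPL27 and RPS19 are higher at 6 days, and RPS15, RPL35, RPL8 and RPL12 are highest in MetaICM.

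Over the 5 comparisons, 52 members passed the adjusted p at least once and 25 never did. The share of all genes that passed at least once was not computed. In single comparisons it ran from 19.3% to 53.5% of all genes, so the 52 cannot be read as an excess. Those 25 include RPL5, RPL22, RPS3 and RPS6, and also RPL7A and RPL13A, the most abundant per kilobase. RPS6, whose protein is phosphorylated by the S6 kinases, had 227 and 206 CPM in young, 190.5 and 175 CPM at 3 days, 198 and 237 CPM at 6 days, and 228 and 262 CPM in MetaICM. Its libraries in young overlapped those at 6 days and not those at 3 days or in MetaICM. RPS3, a 40S protein also known from DNA repair, had 223 and 137 CPM in young, so its libraries there differed by more than those of any other condition, which lay between 182 and 240.4 CPM.

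Median changes were similar between members with a TOP tract directly at the annotated start and the others. Those others include 8 members that qualify with the C allowed up to 5 bases away. Hosts of small nucleolar RNAs and the remaining members also had similar medians. Members with a tract at the start had a median log2FC of −0.14 at 3 days, 0.06 at 6 days and 0.27 in MetaICM against young, and the others −0.06, 0.12 and 0.30. The 28 host genes of small nucleolar RNAs had medians of −0.15, 0.02 and 0.27, and the other members −0.09, 0.09 and 0.28. The 12 members on chromosome 19 had medians of 0.02, 0.11 and 0.39. These differences are descriptions without a test, and the members share libraries. A list of 10 members known from Diamond-Blackfan anaemia was written from general knowledge and is not a full set of such members. Of its genes, 1 of 9 tested was lower at 3 days (15.9% of all genes were). At 6 days 3 were higher (20.5%), and in MetaICM against young 5 were higher (13.0%).

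Some paralogs outside the rule had larger changes than any member. Of the 10 paralogs and fusion genes, 8 were tested, and 2 were lower by both limits at 3 and at 6 days, RPL22L1 and RPL39L. RPL22L1 had 20.9 and 21.1 CPM in young, 9.75 and 7.82 CPM at 3 days, 11.3 and 12.3 CPM at 6 days, and 18.7 and 22.2 CPM in MetaICM. Its log2FC against young was −1.25 at 3 days (SE 0.18, adjusted p = 0.000288), −0.83 at 6 days (SE 0.15, adjusted p = 0.00135) and −0.04 in MetaICM (adjusted p = 0.856). The member RPL22 kept to between 29.7 and 37.9 CPM in young and ICM libraries, with log2FC of −0.10 at 3 days and 0.12 at 6 days.

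RPL39L, known from testis and from some tumours, had 4.82 and 4.14 CPM in young, 1.61 and 1.75 CPM at 3 days, 1.503 and 1.22 CPM at 6 days, and 3.91 and 4.17 CPM in MetaICM. The log2FC was −1.42 at 3 days (SE 0.29, adjusted p = 0.00318), −1.72 at 6 days (SE 0.28, adjusted p = 0.000764) and −0.16 in MetaICM (adjusted p = 0.62). Its start, printed above, holds no tract, in contrast to RPL39, whose own level was 21.7 to 27.3 CPM in all young and ICM libraries. The difference in change between a member and its paralog was not tested.

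RPS27L, a p53 target and paralog of RPS27, rose in all 3 conditions. It had 33.7 and 37.3 CPM in young, 53.8 and 46.5 CPM at 3 days, 52.1 and 54.0 CPM at 6 days, and 57.2 and 59.95 CPM in MetaICM, with log2FC of 0.50 (SE 0.15, adjusted p = 0.023), 0.58 (SE 0.12, adjusted p = 0.00404) and 0.72 (SE 0.12, adjusted p = 0.00261). RPL36AL and FAU were higher at 6 days by adjusted p (log2FC 0.52 and 0.50) and not at 3 days (0.29 in both). In MetaICM, RPL36AL (0.46) passed, and FAU (0.47, adjusted p = 0.057) did not.

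Other genes known for TOP mRNAs, a list of 19 written from general knowledge, had a median of −0.12 at 3 days, 0.02 at 6 days and 0.20 in MetaICM. At 3 days 5 were lower (15.9% of all genes were) and none higher, and at 6 days 1 was higher (20.5%) and 2 were lower (21.7%). EEF1A1, the elongation factor that brings aminoacyl-tRNA to the ribosome, fell at 3 days from 2951 and 2465 CPM to 1541 and 1419 CPM (log2FC −0.87, SE 0.14, adjusted p = 0.000715). At 6 days it stood at 2288 and 2775 CPM, which overlaps young. HNRNPA1, an RNA-binding protein, was lower at 6 days (log2FC −0.69, SE 0.11, adjusted p = 0.000528), at 144 and 151 CPM against 240 and 234 CPM in young.

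PABPC1, the poly(A)-binding protein, was lower in each condition, with log2FC of −0.58 at 3 days and −0.64 in MetaICM. TPT1 was higher at 6 days, at 456 and 469 CPM against 337 and 296 CPM (log2FC 0.54, SE 0.11, adjusted p = 0.00309), and not at 3 days (0.25, adjusted p = 0.185). EEF2 (0.027) and RACK1 (−0.008), which encode an elongation factor and a 40S scaffold, did not pass at 3 days.

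Among 48 ribosome biogenesis factors, 13 were lower and 1 higher at 3 days, and 7 were lower and 8 higher at 6 days, with medians of −0.13 and 0.04. Of all genes, 15.9% were lower and 13.0% higher at 3 days, and 21.7% lower and 20.5% higher at 6 days. FBL, fibrillarin, the methyltransferase of box C/D particles, had 17.95 and 16.6 CPM in young, 10.9 and 9.30 CPM at 3 days, 7.25 and 9.62 CPM at 6 days, and 16.7 and 16.9 CPM in MetaICM (log2FC −0.77 at 3 days, adjusted p = 0.00713, and −1.04 at 6 days, adjusted p = 0.00114). UTP20 of the small subunit processome was lower at 3 days (−0.79, adjusted p = 0.000451). NOP10 of the box H/ACA particles was higher at 3 days (0.73, adjusted p = 0.00949), and RRP12 at 6 days (0.96, adjusted p = 0.00123). NCL, nucleolin, did not pass at 3 days (−0.22, adjusted p = 0.3).

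Of the 14 genes for RNA polymerase I and its factors, which make the rRNA, 4 were lower at 3 days (15.9% of all genes were) and 2 at 6 days (21.7%), and none was higher. CD3EAP, the symbol in the tables for POLR1G, had 3.92 and 3.15 CPM in young and 1.93 and 1.01 CPM at 3 days (log2FC −1.23, SE 0.35, adjusted p = 0.0213). POLR1E fell from 47.7 and 40.7 CPM to 24.2 and 25.4 CPM at 6 days (−0.84, SE 0.13, adjusted p = 0.000671), and POLR1B from 51.2 and 52.8 CPM to 36.4 and 37.2 CPM at 3 days (−0.50, SE 0.13, adjusted p = 0.0143). The list of mitochondrial ribosomal proteins had 15 of 77 higher and none lower at 3 days (median 0.27) and 29 higher and none lower at 6 days (median 0.34), where 13.0% and 20.5% of all genes were higher.

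MRPL36 stood out at 3 days (log2FC 1.12, SE 0.25, adjusted p = 0.00638), with 6.18 and 3.56 CPM in young and 10.7 and 10.9 CPM at 3 days. MRPL14 did so at 6 days (1.29, SE 0.18, adjusted p = 0.000304), with 10.2 and 7.20 CPM in young and 21.1 and 22.2 CPM at 6 days. In MetaICM, 31 of the 77 mitochondrial genes were higher and 1 lower (median 0.44), where 13.0% of all genes were higher.

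Of 20 regulators of ribosomal protein genes or TOP mRNAs, 3 were higher and 1 lower at 3 days, and 1 was higher and 3 lower at 6 days, against 13.0% and 15.9% of all genes at 3 days and 20.5% and 21.7% at 6 days. EIF4EBP1, the inhibitor of cap-dependent translation that mTOR phosphorylates, had 13.5 and 16.3 CPM in young, 6.34 and 4.04 CPM at 3 days, 4.24 and 4.04 CPM at 6 days, and 11.98 and 16.5 CPM in MetaICM. Its log2FC was −1.49 at 3 days (SE 0.24, adjusted p = 0.000644) and −1.84 at 6 days (SE 0.19, adjusted p = 3.7e-05). TBPL1, a TBP-related factor, was higher at 3 days (0.85, adjusted p = 0.00467) and 6 days (1.16, adjusted p = 0.000195). MYC, which drives ribosome production, was lower at 6 days (−0.55, SE 0.17, adjusted p = 0.027) and did not pass at 3 days (−0.38, adjusted p = 0.135).

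Some of these calls changed with the processing or rested on 1 library. With DESeq2, CD3EAP at 3 days (log2FC −1.25) and RPL36AL in MetaICM (0.47) no longer passed. RPL36AL (0.41) also did not with counts thinned to the smallest library. At 3 days, CD3EAP (log2FC −0.86) and FBL (−0.65) no longer passed without the second 3-day library, and NOP10 (0.56), PABPC1 (−0.54), RPS27L (0.37) and TBPL1 (0.66) no longer passed without the first. POLR1B (−0.50 in both) lost its call without either of them. In MetaICM, PABPC1 (−0.57) no longer passed without the first library, and RPL36AL (0.53 and 0.42) did not without either.

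**Figure D5:**
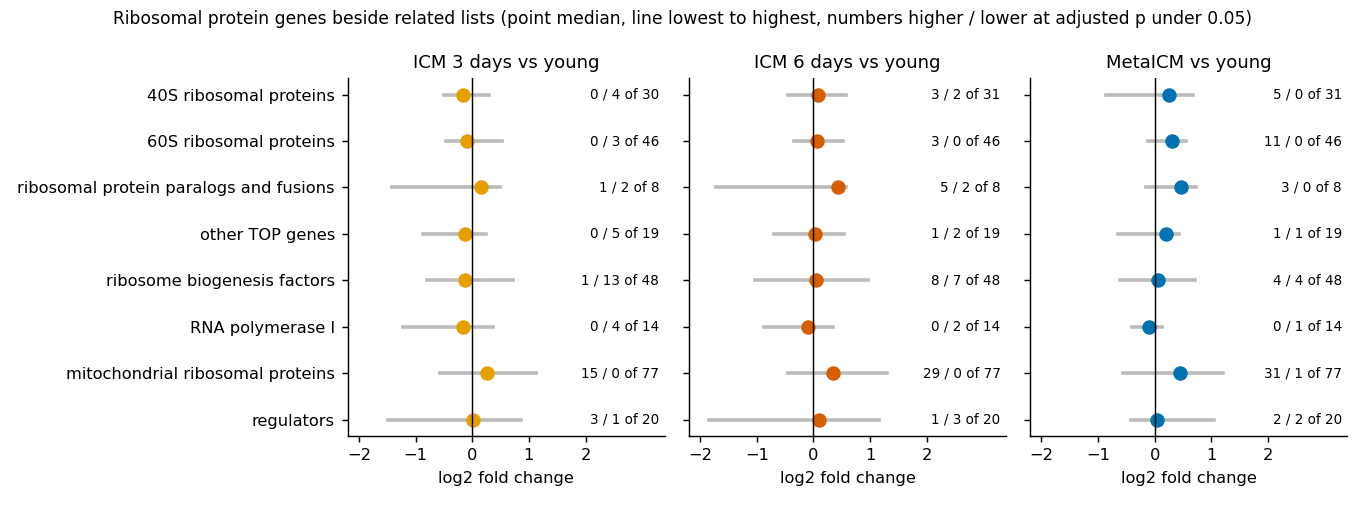
log2FC against young of 8 gene lists in 3 conditions. Points are medians, lines run from the lowest to the highest member, and the figures at the right give the genes higher and lower at an adjusted p under 0.05 of those tested. The 40S and 60S lists lie near 0 at 3 and 6 days with narrow ranges, and 15, 29 and 31 of the 77 mitochondrial ribosomal protein genes tested are higher.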

How the data were processed

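Paired-end reads were aligned by the authors to hg19 (GRCh37) with STAR (version 2.6.0c per the labels), and the deposited counts are whole numbers of read pairs on the exons of each RefSeq gene from featureCounts (version 1.6.3), 1 table per library and not normalized. Per the file headers, both ends had to map, chimeric pairs were dropped, and pairs on several places or genes were not counted. No strand was used, so a member and an overlapping gene of the other strand cannot be told apart. The intronic counts of the study were not analysed here.

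Each pair of conditions (4 libraries) was fitted with edgeR (version 4.0.16, R 4.3.3), using TMM factors and genes kept by filterByExpr (minimum 10), and p from its quasi-likelihood F-test was adjusted by the Benjamini-Hochberg method over all genes tested. Reported limits are an adjusted p under 0.05 alone, or together with an absolute log2FC over 0.6. Every adjusted p given is from this test. Scripts were tested on simulated data. Depth was 12095123 to 23166405 counts, and intervals and p-values cover the spread between 2 libraries per condition only. Replicates of every condition differed by more than sampling noise.

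The members, gene lists and limits were chosen with earlier results of these data known. Named genes are, per comparison, the 4 members of largest log2FC, higher and lower, that passed the adjusted p without overlap of libraries, the 3 highest and the 3 lowest per kilobase in young, members with low counts, a set of members and related genes named in any case, the most changed called gene of each related list at 3 and 6 days, and the 5 genes most like the median profile. Other genes were named after their values were seen, and some members and related genes are counted but not reported by name here. Lists came from general knowledge, and 3 symbols were found through older names in the RefSeq table. A list of 8 mitochondrially encoded genes was not found in the tables. Of the members, 10 known from Diamond-Blackfan anaemia (not a full set) and the 3 stalk genes were kept as lists.

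Alternatives were DESeq2 (version 1.42.0), its size factors, upper-quartile factors, library totals, totals without the members, other count filters, all 8 libraries in one fit, a replicate block, an adjusted p under 0.01, thinned counts, members without shared exon bases, and each library left out. With 1 library left in a condition, it is assumed to vary like the other condition. Python 3.11.15, pandas 2.3.3 and matplotlib 3.10.9 were used for tables and plots.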

Additional observations from a re-analysis of the deposited data

How the results depend on the processing

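With DESeq2, other scalings, filters, thinning or the block, the members' median log2FC kept its sign in all 5 comparisons, from −0.12 to −0.021 (3 days against young), 0.06 to 0.12 (6 days against young), 0.14 to 0.18 (6 against 3 days), 0.26 to 0.31 (MetaICM against young) and 0.19 to 0.23 (MetaICM against 6 days). With each library left out it ran from −0.24 to 0.011, −0.03 to 0.17, 0.08 to 0.27, 0.16 to 0.42 and 0.08 to 0.36. Members lower at 3 days numbered 1 with library totals (with or without the members), 13 with all 8 libraries in one fit and 0 at an adjusted p under 0.01, with 1 higher when all genes were kept. At 6 days against young, library totals of either kind gave 1 past both limits, 11 higher and 1 lower; DESeq2, upper-quartile factors and keeping all genes each gave 1 lower, the joint fit 7 lower, and an adjusted p under 0.01 left 1 higher and 0 lower. For 6 against 3 days, the joint fit and an adjusted p under 0.01 each left 1 higher. For MetaICM against young, keeping all genes gave 34 higher, the joint fit 27, and an adjusted p under 0.01 left 2. For MetaICM against 6 days, the lower member was lost (0) with DESeq2, an adjusted p under 0.01 and members without shared exon bases.

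Leaving out each library gave, by both limits, 0 to 1 higher and 0 to 3 lower at 3 days, 0 to 2 higher and 0 lower at 6 days, 0 for 6 against 3 days, 0 to 12 higher for MetaICM against young, and 0 to 8 higher and 0 lower for MetaICM against 6 days. By adjusted p alone it gave 0 to 4 higher and 0 to 18 lower, 0 to 20 higher and 0 to 16 lower, 0 to 24 higher, 0 to 62 higher, and 21 to 55 higher and 0 to 2 lower, in the same order. With the replicate number as a block, 2 members were higher and 21 lower at 3 days, 4 were lower at 6 days, 19 were higher in 6 against 3 days, 2 passed both limits in MetaICM against young and 3 were lower in MetaICM against 6 days. Same-numbered libraries deviated together only weakly over all genes (correlations of 0.26, 0.07, 0.14, −0.06 and 0.04). Over the members the correlations were 0.04, 0.05, 0.12, 0.28 and 0.27. The labels do not say whether same-numbered libraries share more than the number, such as a batch or day. The SD over members of the log2 level per kilobase was 1.76, 1.801, 1.76 and 1.88 in young, 3 days, 6 days and MetaICM, and 1.10, 1.09, 1.09 and 1.09 without members that share exon bases or have a second copy.

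At 3 days the sign of RACK1 turned with library totals (0.071), totals without the members (0.070) and the block (0.0037), and that of RPL11 with either kind of totals (0.049 in both). With each library left out, log2FC at 3 days ran across 0, from −0.24 to 0.33 for EEF2, −0.46 to 0.041 for NCL, −0.22 to 0.21 for RACK1, −0.22 to 0.17 for RPL11, −0.23 to 0.041 for RPL22, −0.33 to 0.048 for RPLP2 and −0.31 to 0.42 for RPS3. The signs of RACK1 (0.057) and RPL11 (0.023) turned without 3-day replicate 2. For MetaICM against young, thinned counts turned RPL22L1 (0.021) and RPL39L (0.12), and with a library left out the range was −0.15 to 0.10 for RPL22L1, −0.098 to 0.022 for FBL and −0.0957 to 0.39 for NCL. None of these genes had passed the test there, and the cause was not tested. With 2 libraries a condition, the SE of a member's log2FC was near 0.13 against young, which limits what could pass.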
